A study of Mus musculus with 6 samples.

Results

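The genes described here are 10 enzymes and transporters that carry glucose into the cell, break it down and release lactate: Slc2a1, Hk2, Pfkp, Aldoa, Gapdh, Pgk1, Eno1, Pkm, Ldha and Slc16a3. They were picked by name from the 18180 genes of the count table, with earlier results of these data known, although the rule itself uses no measured value. All 10 passed the filter on low counts. Libraries were made from whole mouse tail skin in 2 groups of 3. The control libraries have the genotype Mettl3fl/fl;K14creERT2-/-, and the libraries labelled cKO have Mettl3fl/fl;K14creERT2+/-, so both groups carry the floxed Mettl3 alleles. The keratin K14 promoter drives the tamoxifen-dependent Cre in basal keratinocytes, while the libraries hold RNA of all cells of the skin. Mice received tamoxifen on 5 days in a row, and tails were sampled 4 weeks later. The design text does not say separately that the controls were injected. The Cre group gave inflamed stretches of tail and the control group normal tail, so genotype and inflammation cannot be told apart in any difference below. The sources used here do not give age, sex or strain.

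Glycolysis splits a glucose molecule into pyruvate and yields ATP without oxygen. Lactate dehydrogenase then turns pyruvate into lactate and regenerates the NAD+ that the pathway needs, and proton-coupled transporters carry the lactate out of the cell. The epidermis has no blood vessels of its own and is known for a high rate of lactate production. Many of these genes are textbook targets of the hypoxia-inducible transcription factors, which bind a short element with the core ACGTG or GCGTG.

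Totals were alike, between 35855880 and 37043849 counts per library, and 3 counts correspond to 0.0817 to 0.0837 CPM (counts per 1e+06, after scaling of library sizes). Counts of Mettl3, the gene targeted by Cre, were 440, 389 and 337 in control and 569, 512 and 540 in the others. Its level was 10.7 ± 1.42 CPM in control and 14.9 ± 0.832 CPM in the cKO-labelled libraries (SD, n = 3; edgeR adjusted p = 0.000102), which goes against the label; at a biological coefficient of variation (BCV) set to 20% its adjusted p was 0.15. These counts cover the whole gene and do not show whether the floxed part was removed. Every direction here is therefore given for the cKO-labelled libraries. Markers of other cells also differed between the groups. Summed keratinocyte markers ranged from 29144 to 29421 CPM in control and from 57667 to 58336 CPM in the cKO-labelled libraries, although single markers went both ways: Krt1 (log2 fold change 3.24) and Krt14 (0.89) rose, Krt15, Col17a1, Itgb4 and Trp63 fell, and the median was 0.33. Summed dermal fibroblast markers ranged from 11087 to 11190 and from 16140 to 16182 CPM, and monocyte and macrophage markers from 1097 to 1126 and from 1582 to 1614 CPM. Neutrophil markers, which follow inflammation, were higher in the group labelled as inflamed (70.8 to 73.7 CPM, against 11.6 to 15.7 CPM in control). In bulk skin, fewer cells of a type and less RNA per cell cannot be told apart.

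The sequence before each start site is shown first, because the hypoxia element is the promoter feature these genes are best known for. RefSeq windows (GRCm38.p6) were matched for all 10 genes, 16 windows in total, each read over the 250 bases before the start. ACGTG, searched on both strands, stood in 8 of the 16 windows, belonging to 7 of the 10 genes, and in 20.2% of the 15106 windows of all tested genes. GCGTG, also searched on both strands, stood in 7 windows of 5 genes, against 41.5% of the windows of tested genes. The windows below belong to genes with a single RefSeq start site. Slc16a3, Pgk1 and Slc2a1 had the largest changes among those, and Pfkp did not pass the test. Each is written 5′ to 3′ in the direction of the gene, and capitals mark ACGTG or GCGTG on either strand (CACGT and CACGC on the reverse).
Slc16a3, chr11:120948817-120949066, plus strand: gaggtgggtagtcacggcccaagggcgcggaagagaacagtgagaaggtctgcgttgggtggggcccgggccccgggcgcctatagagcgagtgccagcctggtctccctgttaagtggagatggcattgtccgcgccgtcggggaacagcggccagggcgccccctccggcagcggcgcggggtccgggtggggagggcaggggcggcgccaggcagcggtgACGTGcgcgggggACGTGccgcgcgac
Pgk1, chrX:106186850-106187099, plus strand: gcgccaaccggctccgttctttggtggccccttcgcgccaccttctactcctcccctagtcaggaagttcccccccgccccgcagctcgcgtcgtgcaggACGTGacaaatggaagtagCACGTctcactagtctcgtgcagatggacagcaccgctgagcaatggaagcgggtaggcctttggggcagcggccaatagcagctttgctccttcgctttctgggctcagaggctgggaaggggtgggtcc
Slc2a1, chr4:119108495-119108744, plus strand: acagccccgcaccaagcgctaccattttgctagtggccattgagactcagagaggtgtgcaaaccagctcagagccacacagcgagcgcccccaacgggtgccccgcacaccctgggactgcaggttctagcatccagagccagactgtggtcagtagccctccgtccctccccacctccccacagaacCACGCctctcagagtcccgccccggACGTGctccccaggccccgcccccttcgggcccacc
Pfkp, chr13:6648772-6649021, minus strand: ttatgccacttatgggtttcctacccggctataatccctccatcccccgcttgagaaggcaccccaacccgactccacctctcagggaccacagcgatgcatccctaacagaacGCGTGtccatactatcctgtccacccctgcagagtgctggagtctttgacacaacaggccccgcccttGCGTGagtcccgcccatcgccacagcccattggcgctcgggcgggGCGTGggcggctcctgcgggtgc
Slc16a3 held ACGTG at 14 and 27 bases before the start, and Pgk1 held it at 131 and 150 bases. Slc2a1 held ACGTG at 36 and GCGTG at 61 bases. Pfkp held GCGTG 3 times, at 23, 68 and 136 bases, and no ACGTG. These 4 windows do not stand for the others. Aldoa, which also did not pass, held ACGTG in 2 overlapping windows, and Eno1 and Gapdh, which rose, held only GCGTG. Both genes that did not pass thus held one of the cores, as did genes that rose. With 2 such genes and 250 bases read per window, these matches cannot decide whether either core goes with a rise. Sequence farther away was not searched, and a match of letters is not a measured site. The GC content of the 16 windows ran from 50.4% to 73.6%, beside a median of 52.4% over all 32851 RefSeq windows. That median also covers genes not tested here. Windows of tested genes held the GC-rich GGGCGG more often than all windows (53.6% against 32.7%). Several windows of Aldoa and of Eno1 overlap each other.

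Of the 10 genes, 8 rose in the cKO-labelled libraries, none fell, and 2 (Pfkp and Aldoa) did not pass the test (edgeR quasi-likelihood test, Benjamini-Hochberg adjusted p under 0.05 over 15061 genes). Over all tested genes, 30.8% were called higher and 30.6% lower by the same rule. In each of the 8, the highest control library lay below the lowest cKO-labelled library, and 32.6% of all tested genes had groups that were apart in that direction (32.3% in the other). All 8 rose at least 1.5-fold, as did 12.3% of all tested genes, and 5 rose at least 2-fold (Slc16a3, Pgk1, Eno1, Ldha and Pkm), as did 5.98%. The median log2 fold change of the 10 was 1.01, beside 0.0021 over all tested genes. The 10 genes together took 0.2475% ± 0.00118 of a control library and 0.4525% ± 0.00325 of a cKO-labelled one (SD, n = 3). Libraries of a group were very alike, and if a BCV of 20% is assumed in place of the spread seen here, the same 8 genes are still called beside 12.2% of all genes called higher and 10.2% lower. At an assumed 40%, Slc16a3 alone is called, beside 3.04% of all genes called higher and 2.1% lower.

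**Figure D1:**
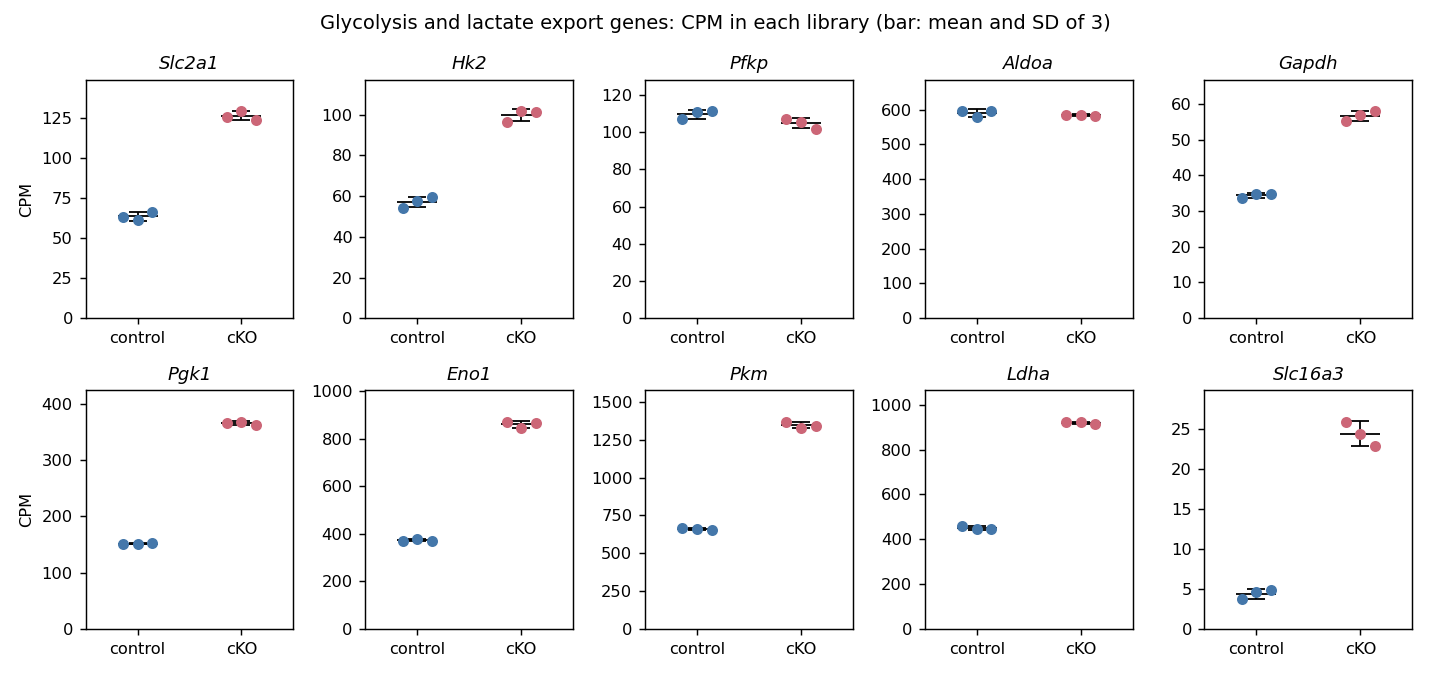
Level of each of the 10 genes in every library, in CPM on an axis that starts at 0; points are libraries, and the bar and whiskers are the mean and SD of 3. Points of the groups are apart for 8 genes, while for Pfkp and Aldoa they lie side by side.

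Slc2a1 (NCBI gene 20525) encodes the main basal glucose transporter of the epidermis. It stood at 63.0, 61.2 and 66.5 CPM in the control libraries and at 126, 129.6 and 124 CPM in the cKO-labelled libraries. The groups were far apart, with a rise of 1.99-fold (log2 fold change 0.99, SE 0.039, adjusted p = 1.97e-35), and 6.53% of tested genes had a larger log2 fold change. Of the other glucose transporters, 7 were tested, of which 1 rose and 2 fell. The riser was the neuronal-type Slc2a3, named after its value was seen since it lay under 1 FPKM (2.64 and 5.07 CPM, log2 fold change 0.94, adjusted p = 2.78e-05). Slc2a12 fell from 13.1 ± 2.06 to 5.99 ± 1.49 CPM (log2 fold change -1.13, adjusted p = 4.48e-10). Slc2a8, an intracellular transporter, fell from 12.9 ± 1.40 to 7.97 ± 0.582 CPM (log2 fold change -0.69). Slc2a4, the insulin-responsive transporter, had a log2 fold change of -0.28 that did not pass (adjusted p = 0.0565). Slc2a1 made up 63.9% ± 1.79 of the summed FPKM of glucose transporters in control and 81.4% ± 0.143 in the cKO-labelled libraries. FPKM are the authors' fragments per kilobase of gene and 1e+06 counted, used here wherever levels of different genes are set side by side.

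Hexokinase traps glucose in the cell by phosphorylation, and Hk2 (NCBI gene 15277) is its inducible, mitochondria-binding form. Hk2 stood at 54.2, 57.6 and 59.4 CPM in control and at 96.6, 102 and 101 CPM in the cKO-labelled libraries. It rose 1.75-fold (log2 fold change 0.81, SE 0.043, adjusted p = 1.43e-27), with no overlap between groups. Hk1, the constitutive form, rose from 62.3 ± 2.68 to 82.0 ± 3.44 CPM (1.32-fold, adjusted p = 4.12e-12), although with an assumed BCV of 20% it was not called. Hk3, a form of white blood cells under 1 FPKM and also named after its value was seen, rose from 1.67 to 2.69 CPM (log2 fold change 0.69, adjusted p = 0.0230). The share of Hk2 in the summed FPKM of hexokinases was 43.7% ± 0.268 in control and 50.6% ± 0.774 in the cKO-labelled libraries. Gpi1, the isomerase of the next step, had a small rise of 0.15 on the log2 scale (from 184 to 205 CPM), which was also not called at a BCV of 20%.

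The phosphofructokinase step commits the sugar to glycolysis, and here Pfkp did not pass the test, Pfkl rose and Pfkm fell. Pfkp (NCBI gene 56421), the platelet-type subunit, stood at 107, 110.8 and 111 CPM in control and at 107, 105 and 102 CPM in the cKO-labelled libraries. The groups overlapped at 107 CPM, and the log2 fold change of -0.07 did not pass (SE 0.036, adjusted p = 0.0965). Pfkl, the liver-type subunit, stood at 27.1, 30.0 and 27.8 CPM in control and at 72.0, 68.3 and 67.1 CPM in the cKO-labelled libraries. It rose 2.44-fold (log2 fold change 1.29, SE 0.055, adjusted p = 3.84e-33). Of the 10 genes, Slc16a3 alone had a larger log2 fold change, but Pgk1 (1.27, SE 0.024) differed from Pfkl by less than the standard error of Pfkl. Pfkm, the muscle-type subunit, fell from 23.9 ± 3.06 to 16.3 ± 1.22 CPM (log2 fold change -0.56, adjusted p = 1.12e-07), which was not called at a BCV of 20% (adjusted p = 0.0803). In summed FPKM of the subunits, Pfkp went from 63.4% ± 1.93 to 51.7% ± 0.732, Pfkl from 17.9% ± 0.717 to 37.5% ± 0.355 and Pfkm from 18.7% ± 2.24 to 10.9% ± 0.776. A stretch of 748 bases of Pfkp is identical to a transcript of the neighbouring gene Pitrm1 in GENCODE M21, and Pitrm1 also did not pass (109.6 and 111.0 CPM, adjusted p = 0.65).

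Aldolase cleaves the hexose into trioses. Aldoa (NCBI gene 11674), the main form, stood at 596, 579 and 597 CPM in control and at 586, 586 and 581 CPM in the cKO-labelled libraries. The cKO-labelled libraries all lay within the control range, and the log2 fold change of -0.02 did not pass (SE 0.017, adjusted p = 0.449). Its sign flips under upper-quartile scaling (0.014), so no direction is given. Aldoc, a minor form, fell from 24.3 to 18.6 CPM (log2 fold change -0.39, adjusted p = 6.21e-05; not called at a BCV of 20%). Aldoa held 96.8% of the summed FPKM of aldolases in control and 97.5% in the cKO-labelled libraries. Tpi1, which interconverts the trioses, rose 2.14-fold (193 ± 1.26 and 413 ± 6.84 CPM; adjusted p = 8.14e-54). Aldoa thus did not pass, while genes of steps on both sides of it, Slc2a1 and Hk2 before and Tpi1 after, rose. At the phosphofructokinase step directly before it, Pfkp did not pass either, Pfkl rose and Pfkm fell.

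Gapdh (NCBI gene 14433), which oxidises the triose and makes NADH, is a common reference gene in skin. It stood at 33.6, 34.8 and 34.9 CPM in control and at 55.1, 56.8 and 58.0 CPM in the cKO-labelled libraries. It rose 1.65-fold (log2 fold change 0.72, SE 0.055, adjusted p = 2.38e-19) with no overlap between groups. Its level was low for this gene beside its neighbours in the pathway, at 19.7 FPKM in control against 253 for Aldoa and 82.2 for Pgk1. Transcripts of 77 other genes in GENCODE M21, 74 of them pseudogenes, match Gapdh over at least 300 bases at 95% identity or more. Only 1 of them, Gm29667, was found in the count table by name. The sources used here do not say how reads with several matches were counted, and the part of the copies in the level of Gapdh was not tested. Gapdhs, the sperm-type form, had a log2 fold change of 1.18 at 1.05 ± 0.846 and 2.39 ± 0.145 CPM (adjusted p = 0.0027).

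Phosphoglycerate kinase makes the first ATP of the pathway. Pgk1 (NCBI gene 18655), whose promoter is printed above, stood at 151, 150.2 and 153 CPM in control and at 366, 368 and 363 CPM in the cKO-labelled libraries. It rose 2.42-fold (log2 fold change 1.27, SE 0.024, adjusted p = 2.94e-56), with 4.07% of tested genes showing a larger log2 fold change. Its relative Pgk2 was not analysed here. Pgam1, the mutase of the next step, rose 1.99-fold, from 67.3 ± 2.44 to 134 ± 1.01 CPM (adjusted p = 1.6e-36). The muscle mutase Pgam2 (1.01 and 1.10 CPM, adjusted p = 0.819) and Bpgm, which serves red blood cells (28.6 and 26.3 CPM, adjusted p = 0.122), did not pass.

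Enolase dehydrates the product to phosphoenolpyruvate. Eno1 (NCBI gene 13806) stood at 371, 379.5 and 370.4 CPM in control and at 872, 843 and 865 CPM in the cKO-labelled libraries. It rose 2.30-fold (log2 fold change 1.203, SE 0.018, adjusted p = 1.98e-63). Eno1b, a copy that matches Eno1 at 99.5% identity over 1736 bases, had a similar log2 fold change (1.14, adjusted p = 6.81e-09) at 5.33 ± 1.30 and 11.8 ± 2.82 CPM, and reads of the pair cannot be told apart with certainty. Eno2, the neuronal form, had a log2 fold change of 0.59 (2.68 and 4.04 CPM, adjusted p = 0.0147; not called at a BCV of 20%). Eno3, the muscle form, fell from 20.4 ± 0.386 to 15.6 ± 0.928 CPM (log2 fold change -0.39, adjusted p = 0.000121; not called at a BCV of 20%). Eno1 held 96.1% of the summed FPKM of enolases in control and 97.5% in the cKO-labelled libraries.

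Pkm (NCBI gene 18746) encodes the pyruvate kinase of most tissues outside liver and red blood cells, in forms made by alternative splicing that gene counts do not separate. It stood at 667, 658 and 657 CPM in control and at 1371, 1328 and 1341 CPM in the cKO-labelled libraries. It rose 2.04-fold (log2 fold change 1.03, SE 0.015, adjusted p = 4.59e-64), the smallest standard error among the 10 genes. In counts it was the most abundant of the 10 in both groups, at a gene length of 6119 bases, the longest of the 10. The liver and red cell gene Pklr was not analysed here.

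**Figure D2:**
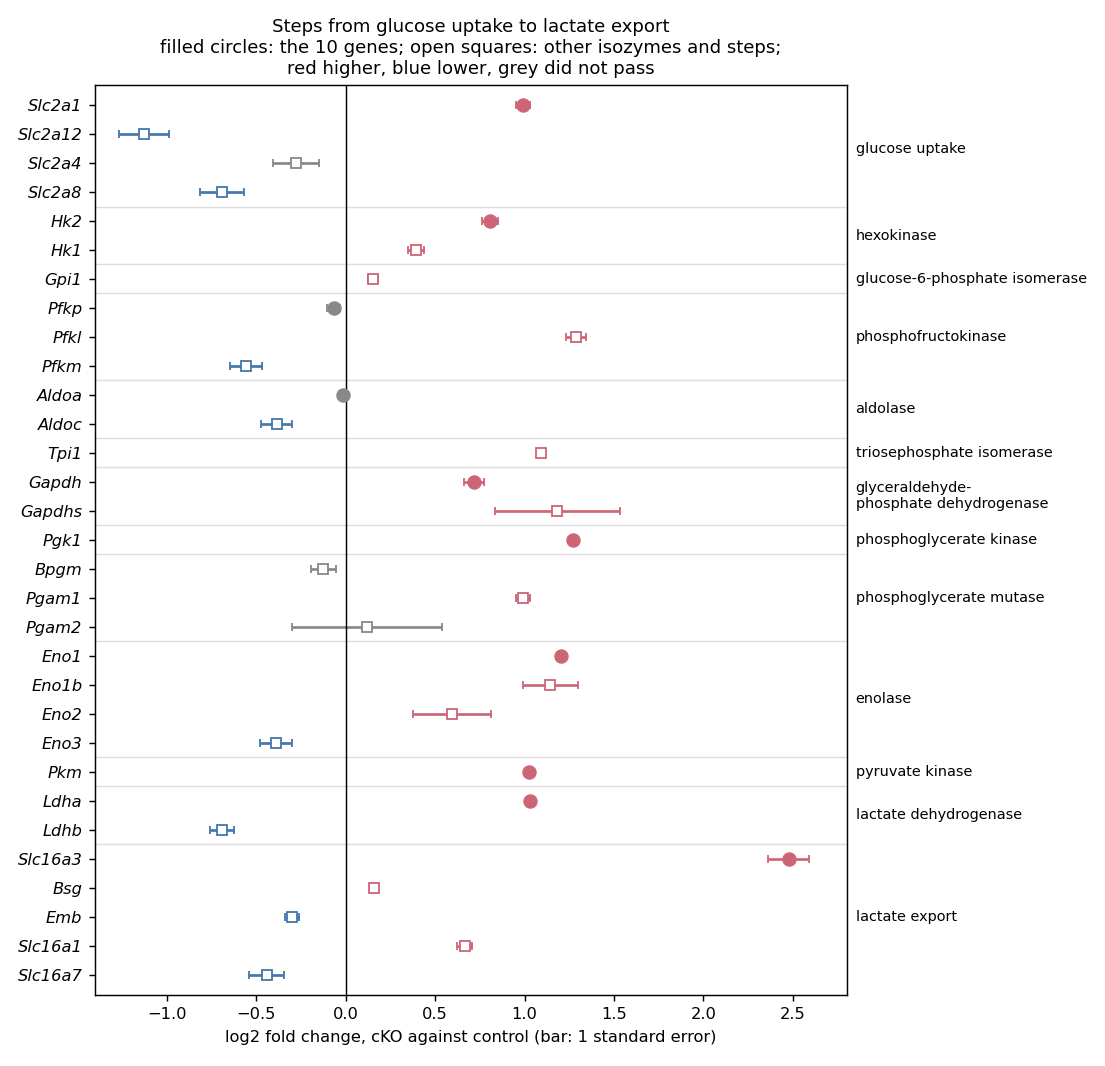
Log2 fold change of the cKO-labelled libraries against control, in pathway order from glucose uptake to lactate export; filled circles are the 10 genes, open squares are other isozymes and steps with a mean of at least 1 FPKM, and bars are 1 standard error. Slc16a3 lies farthest right at 2.48 and Slc2a12 farthest left at -1.13. Pfkp and Aldoa lie close to 0 (-0.07 and -0.02), while Pfkl lies at 1.29.

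Lactate dehydrogenase showed opposite changes in its subunits. Ldha (NCBI gene 16828), which favours the making of lactate, stood at 458, 445 and 446 CPM in control and at 925, 920.7 and 916 CPM in the cKO-labelled libraries. It rose 2.05-fold (log2 fold change 1.03, SE 0.017, adjusted p = 1.28e-60). Ldhb, which favours the use of lactate, stood at 43.1, 38.0 and 39.0 CPM in control and at 23.4, 25.9 and 25.0 CPM in the cKO-labelled libraries. It fell 1.62-fold (log2 fold change -0.69, adjusted p = 9.24e-15), and every cKO-labelled library lay below every control. Per length, Ldha made up 73.3% ± 0.988 of the summed FPKM of both in control and 90.1% ± 0.494 in the cKO-labelled libraries. That share rests on the authors' lengths of 5342 and 1304 bases, and in summed counts it was 91.8% and 97.4%.

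Slc16a3 (NCBI gene 80879), the low-affinity transporter through which glycolytic cells release lactate, had the largest change of the 10 genes. It stood at 3.68, 4.61 and 4.87 CPM in control (135, 165 and 179 counts) and at 25.9, 24.4 and 22.9 CPM in the cKO-labelled libraries (936, 887 and 832 counts). It rose 5.56-fold (log2 fold change 2.48, SE 0.11, adjusted p = 1.51e-31), and 1.26% of tested genes had a larger log2 fold change. On the log2(FPKM + 1) scale, which understates changes at low levels, the difference was 1.85. Slc16a1, a transporter that carries lactate in either direction, rose 1.59-fold from 57.7 ± 0.556 to 91.6 ± 3.76 CPM (adjusted p = 1.05e-22). Slc16a7, the high-affinity form, fell from 18.8 to 13.9 CPM (log2 fold change -0.44, adjusted p = 9e-05; not called at a BCV of 20%). Despite its rise, Slc16a3 stayed below Slc16a1, with 7.99% ± 0.949 of the summed FPKM of these transporters in control and 24.5% ± 1.75 in the cKO-labelled libraries, against 82.1% and 71.6% for Slc16a1. Of the chaperones that bring them to the membrane, Bsg had a log2 fold change of 0.16 (253 and 283 CPM, adjusted p = 1.32e-08) and Emb of -0.30 (99.3 and 80.6 CPM, adjusted p = 3.55e-10); neither was called at a BCV of 20%.

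**Figure D3:**
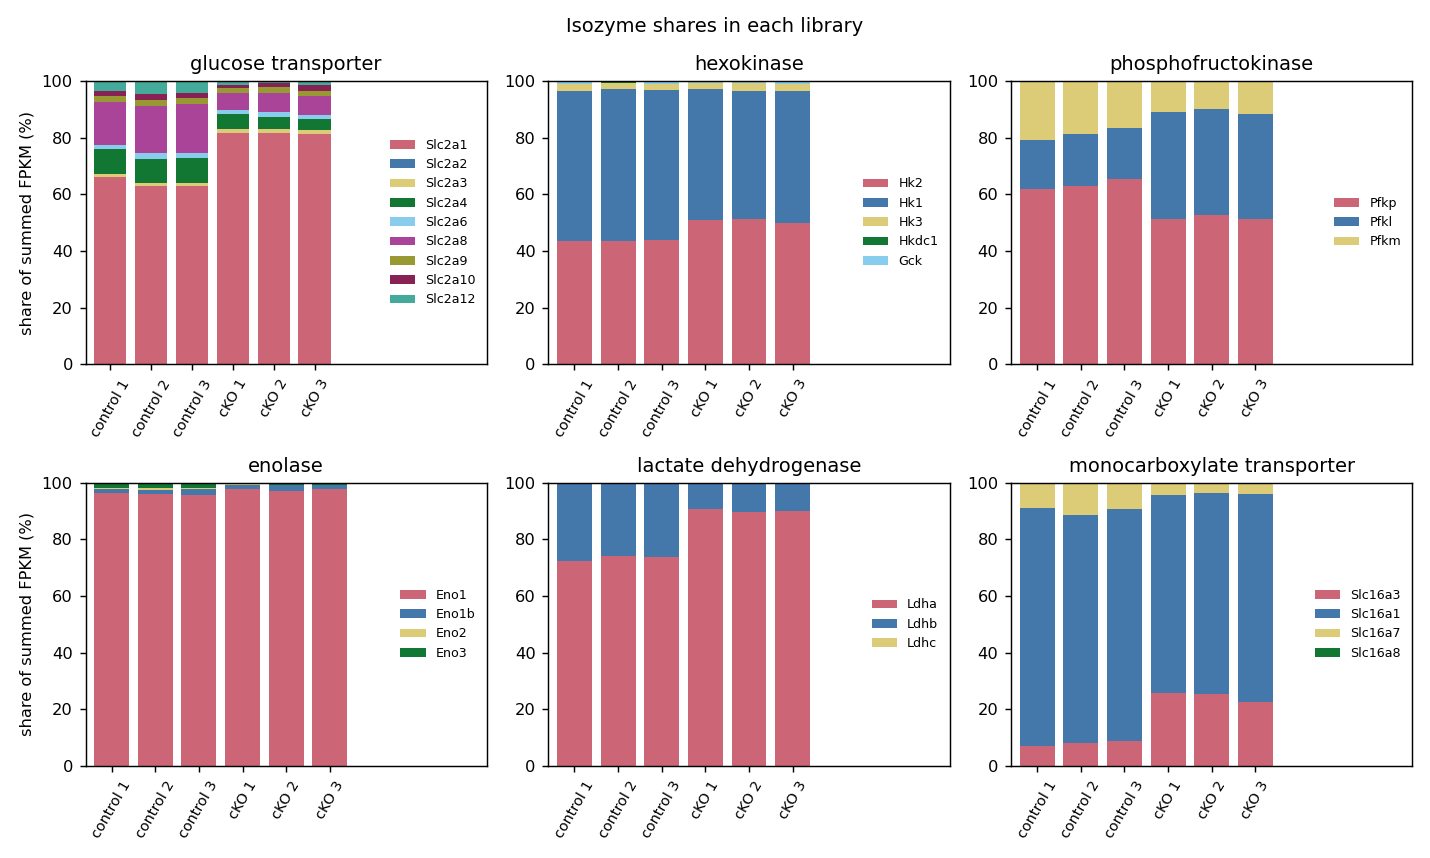
Share of each isozyme in the summed FPKM of its family, in percent, for every library. Ldha goes from 73.3% to 90.1%, Pfkl from 17.9% to 37.5% and Slc16a3 from 7.99% to 24.5% between control and the cKO-labelled libraries, and the 3 libraries of a group look alike.

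Levels per length put the 10 genes in a similar order in both groups. That order rests on the authors' gene lengths, such as 6119 bases for Pkm and 2317 for Aldoa. By CPM, Pkm led in both groups. Aldoa came second in control (661 for Pkm and 591 for Aldoa). Ldha came second in the cKO-labelled libraries (1347 for Pkm and 921 for Ldha). In control, Aldoa led with 253 FPKM, followed by Eno1 (185), Pkm (107), Ldha (83.5), Pgk1 (82.2), Pfkp (24.3), Slc2a1 (23.8), Gapdh (19.7), Hk2 (9.43) and Slc16a3 (1.26). The library ranges of Ldha and Pgk1 overlapped, as did those of Pfkp and Slc2a1, so these pairs are not separated beyond the spread between libraries. In the cKO-labelled libraries, Eno1 led with 432 FPKM, ahead of Aldoa (254), Pkm (222), Pgk1 (202), Ldha (174), Slc2a1 (48.1), Gapdh (32.9), Pfkp (23.6), Hk2 (16.8) and Slc16a3 (7.13), with no overlap between neighbours. Slc2a1, level with Pfkp in control, and Gapdh, below it there, both stood above Pfkp in these libraries. The place of Gapdh in both orders also rests on how reads shared with its near-identical copies were counted, which is not given.

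Of 27 tested genes that are other isozymes or steps of glycolysis, 12 rose (44.4%), 8 fell (29.6%) and 7 did not pass, against 30.8% and 30.6% of all tested genes. Their median log2 fold change was 0.28. It was 0.17 without control replicate 1 and 0.18 without control replicate 2 or without cKO replicate 2. It was 0.30 without control replicate 3 and 0.38 without cKO replicate 1. At an assumed BCV of 20%, 8 were called higher and 3 lower, beside 12.2% and 10.2% of all tested genes. Among them were Tpi1, Pfkl, Pgam1 and Slc16a1 on the higher side and Slc2a12, Slc2a8 and Ldhb on the lower.

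Of 18 tested regulators, 6 rose (33.3%), 8 fell (44.4%) and 4 did not pass, beside 30.8% and 30.6% of all tested genes. The median log2 fold change was -0.07, and -0.04 without control replicate 1 or without cKO replicate 1, and -0.09 without control replicate 3. Hif1a, the oxygen-sensitive transcription factor subunit, rose 1.75-fold from 141 ± 4.78 to 246 ± 6.04 CPM (adjusted p = 7.25e-39). Txnip, which restrains glucose uptake, fell from 462 ± 9.48 to 217 ± 1.95 CPM (log2 fold change -1.09, adjusted p = 1.08e-54). The kinases that switch off pyruvate dehydrogenase all fell: Pdk2 from 13.0 to 7.45 CPM (log2 fold change -0.80), Pdk3 from 47.0 to 31.5 CPM (-0.58) and, named after their values were seen, Pdk1 from 107 to 73.5 CPM (-0.54) and Pdk4 from 4.47 to 3.29 CPM (-0.44). Of the opposing phosphatases, Pdp2 rose from 4.59 to 8.47 CPM (log2 fold change 0.88). Pdp1, named after its value was seen, did not pass (log2 fold change -0.00036 in the fit at a BCV of 20%). Pfkfb4, which sets the activator of phosphofructokinase, rose from 27.5 to 38.4 CPM (0.48). At an assumed BCV of 20%, Hif1a, Pdp2, Txnip and Pdk2 were called and Pdk1, Pdk3 and Pdk4 were not. Myc, also named after its value was seen, did not pass (48.1 and 51.3 CPM, adjusted p = 0.114).

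Among hypoxia-induced genes outside glycolysis, 8 of 15 tested rose (53.3%), 4 fell (26.7%) and 3 did not pass (median log2 fold change 0.18). Over all tested genes, 30.8% were called higher and 30.6% lower. Vegfa, the vessel growth factor, rose from 27.2 to 52.9 CPM (log2 fold change 0.96, adjusted p = 4.88e-24). Egln3, an oxygen-sensing hydroxylase, rose from 180.4 to 347 CPM (0.94) and Ankrd37 from 4.87 to 9.94 CPM (1.03). Ndrg1 fell from 181 to 122 CPM (log2 fold change -0.57), Mxi1 from 103 to 72.2 CPM (-0.51) and Kdm3a, a histone demethylase, from 74.2 to 58.0 CPM (-0.35). Car9, a carbonic anhydrase often used as a hypoxia marker and named after its value was seen, did not pass (1.24 and 1.74 CPM, adjusted p = 0.219). At an assumed BCV of 20%, 4 genes of the list were called, all higher (Vegfa, Egln3, Ankrd37 and Higd1a), and none of the 4 falls was. At that setting 12.2% of all tested genes were called higher and 10.2% lower.

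Pyruvate can also enter mitochondria and be oxidised. Of 23 tested genes of pyruvate entry and the TCA cycle, 11 rose (47.8%), 5 fell (21.7%) and 7 did not pass, beside 30.8% and 30.6% of all tested genes. The median log2 fold change was 0.10, and 0.037 without control replicate 1, 0.062 without cKO replicate 1 and 0.12 without cKO replicate 2. Both subunits of the mitochondrial pyruvate carrier fell, Mpc1 from 37.9 to 26.5 CPM (log2 fold change -0.52) and Mpc2 from 74.7 ± 2.33 to 46.1 ± 0.698 CPM (-0.70, adjusted p = 1.62e-21). At an assumed BCV of 20%, Mpc2 was the single gene called from this list. Sdhd, a subunit of succinate dehydrogenase, rose from 60.2 to 79.9 CPM and its partner Sdhb fell from 76.8 to 66.1 CPM.

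Of 8 tested pentose phosphate genes, 6 rose (75%) and 2 fell (25%), or 1 without control replicate 3, beside 30.8% and 30.6% of all tested genes. Their median log2 fold change was 0.33. Pgd rose from 118 to 169 CPM (0.52, adjusted p = 5.45e-25) and Rpe from 33.2 to 49.8 CPM (0.59). Taldo1 fell from 137 to 122 CPM (-0.17). None of the 8 was called at a BCV of 20%. Of 6 tested gluconeogenesis genes, 1 rose (16.7%) and 4 fell (66.7%), beside 30.8% and 30.6% of all tested genes. Their median log2 fold change was -0.39. But 2 fell without cKO replicate 3, as in the fits on log2 FPKM and at an adjusted p under 0.01. Pck1, the rate-limiting carboxykinase, fell from 14.4 to 5.69 CPM (-1.34, adjusted p = 7.95e-14), the single call of the list at a BCV of 20%. Of 15 tested glycogen genes, 3 rose (20%) and 6 fell (40%), beside 30.8% and 30.6% of all tested genes. Their median log2 fold change was -0.08, and between -0.12 (without control replicate 1) and -0.04 (without control replicate 2) with a library left out. Pygl, which releases glucose from glycogen, fell from 29.2 to 18.0 CPM (-0.70), and the subunits Phka1 and Phka2 of its activating kinase fell by 0.77 and 0.76 on the log2 scale; these were the 3 calls at a BCV of 20%.

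**Figure D4:**
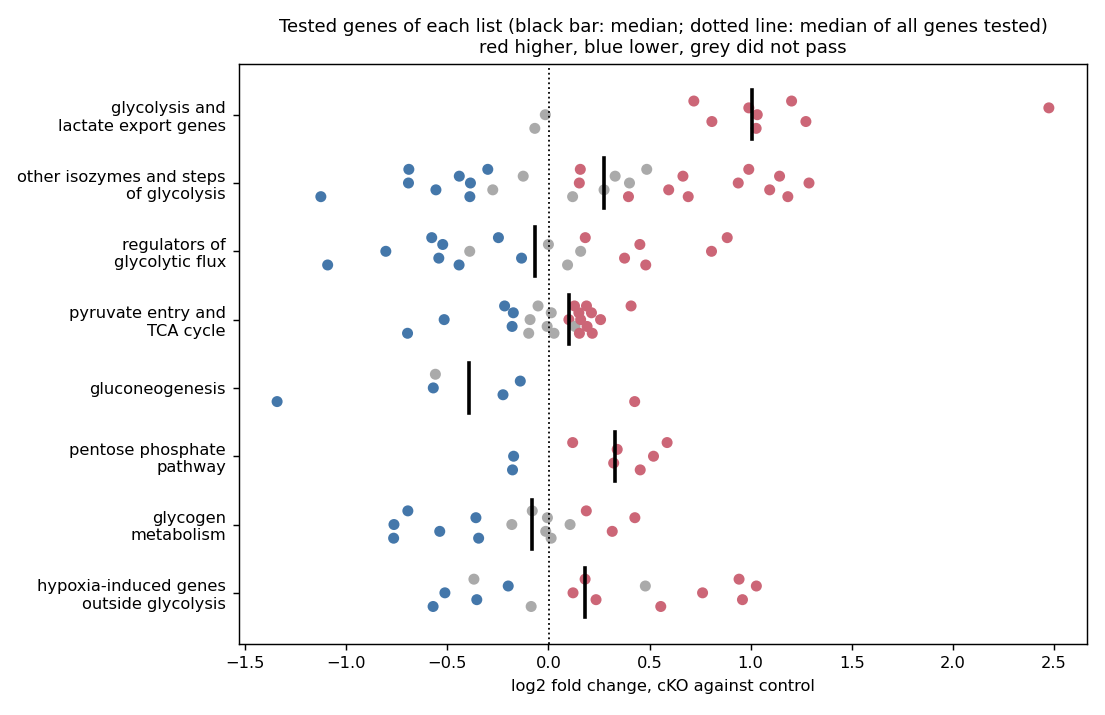
Log2 fold change of every tested gene in the pathway lists, with the median of each list as a black bar and the median of all tested genes as a dotted line. The 10 glycolysis and lactate export genes have a median of 1.01, the other isozymes and steps 0.28, and gluconeogenesis -0.39.

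Markers of other cells and of cell division moved alongside these genes, and their part in the results was not tested. Neutrophil markers summed to between 11.6 and 15.7 CPM in control and between 70.8 and 73.7 CPM in the cKO-labelled libraries; 9 of the 15 were tested and were called higher. Some of them, such as Trem1 with 5, 4 and 0 control counts, passed the filter only through the group where they are high, so that count is no support. Mpo and Elane, at 0 to 4 counts in every library, were not tested, and neither were Ly6g, Ngp, Camp and Ltf. Beside the marker counts that follow, 30.8% of all tested genes were called higher and 30.6% lower. At a BCV of 20% these shares were 12.2% and 10.2%. All 13 monocyte and macrophage markers rose (median log2 fold change 0.58; 6 at a BCV of 20%), as did all 10 proliferation markers (1.08; 9 at a BCV of 20%), whose sum went from between 390 and 411 CPM to between 738 and 743 CPM. Of the keratinocyte markers 6 rose and 4 fell (3 and 2 at a BCV of 20%), and of the dermal fibroblast markers 5 rose and 1 fell (3 and 0). Red blood cell markers fell in 6 of 6 cases, from sums of 122 to 135 CPM to 74.3 to 75.4 CPM. Skeletal muscle markers summed to 16.1 to 21.1 CPM in control and 19.7, 44.8 and 20.9 CPM in the cKO-labelled libraries. Of 12 tested, 2 rose (Tnni2 and Ckm) and none fell (median log2 fold change 0.68, and 0.087 without cKO replicate 2 and 0.93 without cKO replicate 1). The count was 5 at a BCV of 20%, without control replicate 1 and without cKO replicate 1, and 1 without control replicate 2 or cKO replicate 2.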

How the data were processed

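Per the labels' protocols, mouse tail skin RNA was extracted with TRIzol and libraries came from the VAHTS Universal V5 kit. The authors deposited whole-number counts per gene and FPKM for the same 18180 genes. The submitters' processing notes name fastp, HISAT2, HTSeq and mm39. Versions, annotation, strand setting and the handling of reads with several matches: not given in the sources used here. The deposited FPKM equal counts divided by length and column total (relative tolerance 1e-06) for all 18180 genes. No column was left unmapped.

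Genes were filtered with filterByExpr (minimum count 10, minimum total 15), which left 15061, and tested with edgeR 4.0.16 in R 4.3.3 (TMM scaling, robust quasi-likelihood fit, group as the only term, two-sided, Benjamini-Hochberg adjustment over the tested genes, called at 0.05). Standard errors were obtained as the size of the log2 fold change over the root of F. CPM use TMM-scaled library sizes, and limits of 3 counts cover counting error only. Nothing in the labels says that the 3 libraries of a group are separate animals. The p-values then measure the spread between libraries only, which may be technical; pairs within a group differed with a chi-square per gene of 3.96 to 4.13. On simulated counts for 14910 genes with 50 genes changed at each size, 48%, 78%, 84% and 100% were recovered at 1.2, 1.5, 2 and 4-fold, and 10 of 165 calls were false. Far more genes were called in the data (9244), so these rates do not carry over to the calls above.

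The 10 genes and all lists were chosen with earlier results of these data known. Named besides the 10 genes and Mettl3 are isozymes and steps with a mean of at least 1 FPKM, copies that could share reads, and up to 3 called genes in each direction per other list. Gapdhs and Eno2 come under the first of these, cell type markers named with values were chosen after their values were seen, and the few others are marked. Lists are described by counts and medians, without a test of the list, and isozyme shares are untested descriptions. Near-identical transcripts were found with BLAST 2.17.0 in GENCODE M21, and promoters come from RefSeq on GRCm38.p6, another build than the counts, so no coordinates of both are combined. Alternatives were DESeq2 1.42.0, limma 3.58.1 (voom, log2 FPKM), other scalings and filters, a replicate block, assumed BCVs of 20% and 40%, a fit without muscle and red blood cell genes, and fits without each library in turn.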

Additional observations from a re-analysis of the deposited data

How the results depend on the processing

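Over 20 alternatives for each of the 10 genes (200 values), 189 kept direction and call, 7 lost the call and 4 changed sign. The 7 losses are the risen genes other than Slc16a3 at an assumed BCV of 40%, which left 1 of 10 called (8 at 20%). Over all genes, calls went from 9244 to 3361 at 20% and 774 at 40%, and over the wider lists from 140 to 66 and 13. The 4 sign changes are all of Aldoa, never called: 0.014 with upper-quartile scaling, 0.0078 on log2(FPKM + 1) with and without the filter, and 0.0079 on log2(FPKM + 0.1). Leaving out each library in turn left 8 of the 10 genes called, 8694 to 8847 calls over all genes, and a Slc16a3 log2 fold change of 2.36 to 2.56.

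Shares by summed counts, control then labelled cKO, were 58.0% and 77.3% for Slc2a1, 46.8% and 53.9% for Hk2, 67.8% and 55.1% for Pfkp, 96.0% and 96.9% for Aldoa, 92.9% and 96.5% for Eno1, 91.8% and 97.4% for Ldha, and 5.40% and 18.8% for Slc16a3, each in the same direction as by FPKM; the move comes from leaving out gene length. Replicate numbers did not pair the libraries (correlations of same-numbered deviations -0.019, 0.016 and -0.0148), and a fit with a replicate block called 8 of the 10 genes, 9212 genes in all, and 5 in place of 2 skeletal muscle markers.

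The depth, at least 35855880 counts per library, puts every one of the 10 genes well above the limit that a count of 0 allows. What limits these results is 3 libraries per group of unstated origin, and 1 tissue state per genotype.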
